A study of Mus musculus with 20 samples.

Results

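The transcripts of 8 genes that carry mutations in familial amyotrophic lateral sclerosis (ALS) and that serve protein clearance or redox defence were followed in cultured mouse motoneurons. They were taken by gene symbol from the deposited tables, where Sod1, Vcp, Ubqln2, Sqstm1, Optn, Tbk1, Chmp2b and Fig4 made up 8 of 39174 genes. All 8 had a row in each of 20 libraries. The cells came from spinal cords of CD-1 mouse embryos, were enriched for motoneurons with an antibody against p75, and grew for 7 days in microfluidic chambers in which axons enter a compartment of their own. Every culture received a lentivirus before plating. Control cultures received an empty expression vector and Tdp-43 knockdown cultures a vector for a short hairpin RNA against Tdp-43. RNA was isolated separately from both compartments, amplified by PCR and sequenced, which gave 4 control somatodendritic, 6 knockdown somatodendritic, 4 control axonal and 6 knockdown axonal libraries. The labels do not say which libraries came from 1 culture or 1 preparation, so the p-values measure the spread between these libraries, which may in part be technical. No batch or date is given for any library. The controls were first presented in an earlier publication, and the study states that both sets were handled side by side.

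Tdp-43, encoded by Tardbp, is an RNA-binding protein that leaves the nucleus and accumulates in the cytoplasm of motoneurons in most patients with ALS. The 8 genes act at successive steps of cellular upkeep. Sod1 is the cytosolic superoxide dismutase. Vcp is an ATPase that extracts ubiquitinated proteins from complexes and membranes, and Ubqln2 carries such proteins to the proteasome. Sqstm1 (p62) and Optn are receptors that bind ubiquitinated cargo and the growing autophagosome membrane, and Tbk1 is the kinase that phosphorylates both. Chmp2b is a subunit of ESCRT-III, the membrane-cutting complex of endosomes, and Fig4 is a phosphatase in the complex that makes and removes the endosomal lipid PI(3,5)P2.

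The levels are FPKM, fragments divided by transcript length and by the mapped fragments of the library, which the authors computed with Cufflinks for each library. They allow levels of different genes to be compared, because length is divided out. The files hold no read counts. The 95% interval given with each FPKM was therefore read as counting error to obtain an implied number of fragments, an effective number that falls where a fragment could belong to several transcripts. Depth relative to the deepest library was 0.612 to 1.0 in control somatodendritic, 0.143 to 0.698 in knockdown somatodendritic, 0.530 to 0.674 in control axonal and 0.103 to 0.760 in knockdown axonal libraries. The 3 shallowest libraries were knockdown axonal 5, knockdown somatodendritic 6 and knockdown somatodendritic 5, at 0.103, 0.143 and 0.256. All FPKM values of 0 among the 8 genes lay in these 3 libraries. Tardbp was at 19.0 to 30.8 FPKM in control and 0 to 8.54 FPKM in knockdown somatodendritic libraries, a log2 change of -3.06 ± 0.56 (SE; limma, adjusted p = 0.0228). Other fits gave Tardbp changes of -3.915 to -2.053 there, and 13 of 20 called it (limma, adjusted p from 0.00251 to 0.129). In axons its log2 change was -1.71 ± 0.63 (limma, adjusted p = 0.427), and the library labelled axonal knockdown 1 had 33.2 FPKM of Tardbp, above each control axonal library in FPKM as deposited.

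None of the 8 genes passed an adjusted p of 0.05 in limma in any of the comparisons between knockdown and control or between compartments. In the somatodendritic compartment 0 of 8 passed, where 0.974% of 13762 genes tested did, and in axons 0 of 8, where 0.401% of 13958 did. Between control compartments 0 of 8 passed against 6.9% of 13760 genes, and between knockdown compartments 0 of 8 against 1.28% of 14021. At an unadjusted p under 0.05 Sod1 was lower after knockdown in both compartments, Chmp2b was lower in axons than in the somatodendritic compartment in both conditions, and Fig4 was lower in knockdown axons. That is 1 of 8 in each knockdown comparison, where 9.22% and 6.46% of all genes were lower at this threshold and 13.8% and 8.6% differed in either direction. Between compartments it is 1 of 8 in control, against 11.8% lower and 22.9% in either direction, and 2 of 8 in knockdown libraries, against 8.73% and 16.6%. With 8 genes, 1 gene more or less moves these shares widely. Log2 changes are differences of log2(scaled FPKM + 1), with libraries brought to a common scale by their median ratio, so that changes of low genes are understated.

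The levels of the 8 genes differed widely. Sqstm1 was highest in all 4 groups, with means of 219.6 FPKM in control somatodendritic and 128.8 FPKM in control axonal libraries, and its range did not overlap that of the next gene in any group. In control somatodendritic libraries the order of the single rows below it was Sod1 (53.2 FPKM), Ubqln2 (39.1), Chmp2b (31.3), Vcp (24.1), Optn (12.6), Fig4 (7.95) and Tbk1 (3.07). Sod1 and Ubqln2 overlapped there, while each further neighbour in this order was separated over the 4 libraries. In the other groups every pair of neighbours below Sqstm1 overlapped in range. Control axonal libraries had the order Sod1, Ubqln2, Vcp, Chmp2b, Optn, Fig4, Tbk1. After knockdown Ubqln2 stood second in both compartments, with means of 39.2 and 36.6 FPKM against 20.96 and 26.6 FPKM for Sod1. All these places use single rows. Sod1 and Vcp each share most of their sequence with a processed copy (Gm8566 and Vcp-rs, below), so their places are uncertain. Vcp summed with Vcp-rs had means of 85.4 FPKM in control and 65.0 FPKM in knockdown somatodendritic libraries, above Ubqln2. In axons these sums were 63.7 and 61.0 FPKM, also above Ubqln2. Sod1 summed with Gm8566 reached 161.4 FPKM in control axonal libraries, within the range of Sqstm1 there.

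**Figure D1:**
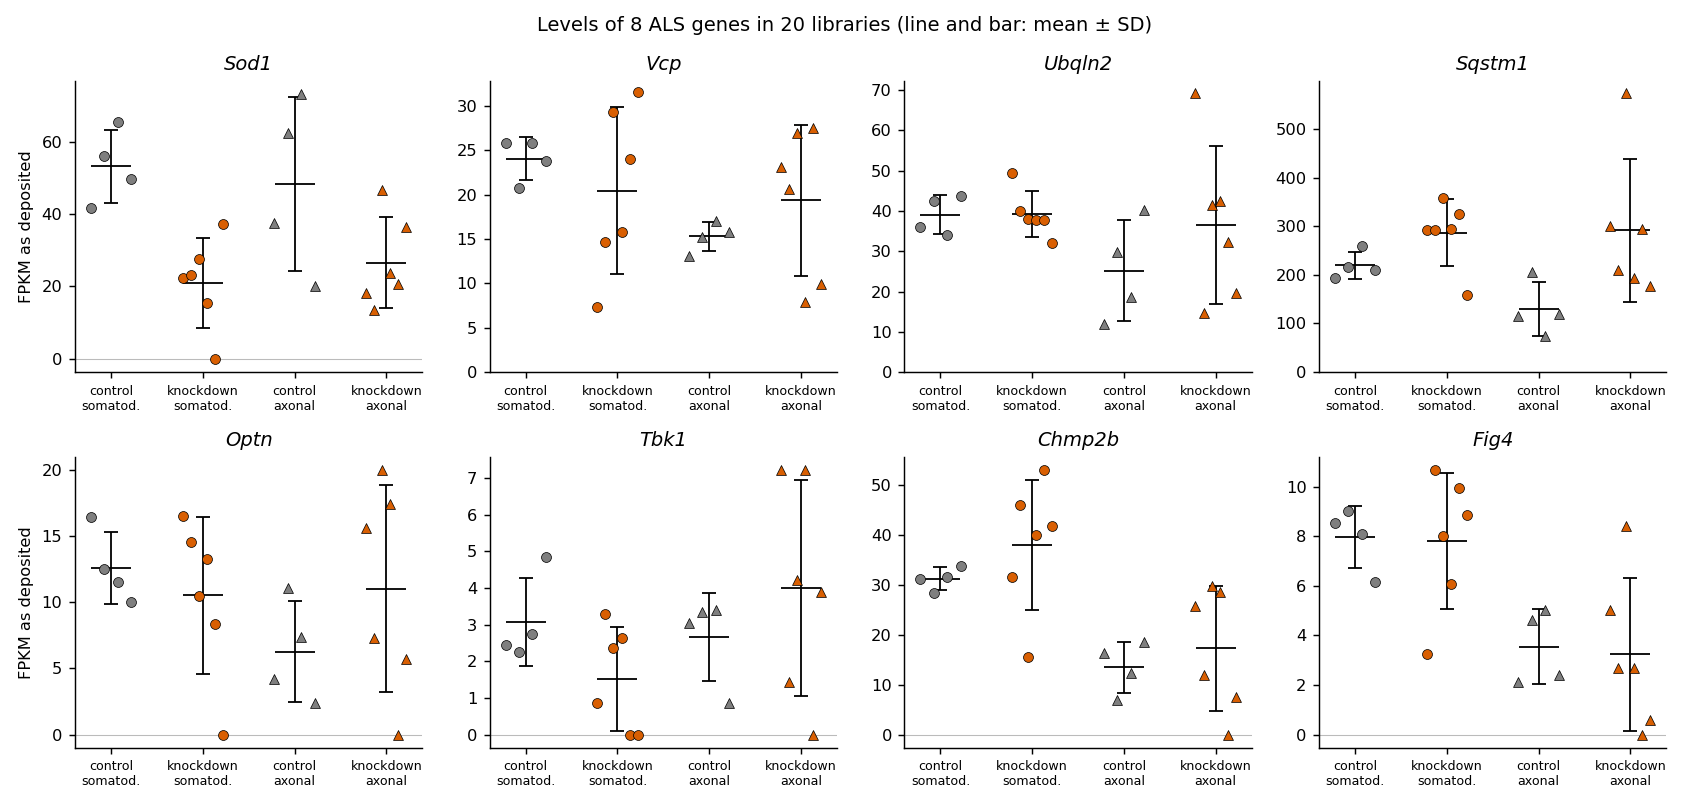
FPKM as deposited (vertical axes, each with its own scale) for the 8 genes in 4 control and 6 knockdown somatodendritic libraries (circles) and 4 control and 6 knockdown axonal libraries (triangles), with mean ± SD. Sod1 in all 6 knockdown somatodendritic libraries (0 to 37.2 FPKM) lies below the 4 controls (41.7 to 65.5 FPKM), and Chmp2b in all 4 control axonal libraries (6.87 to 18.5 FPKM) lies below the control somatodendritic ones (28.4 to 33.9 FPKM).

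Sod1 (ENSMUSG00000022982, GRCm38 chr16:90220754-90226329, plus strand, 5 exons) encodes the enzyme that converts superoxide into hydrogen peroxide and oxygen. Its FPKM in control somatodendritic libraries 1 to 4 were 41.7, 56.2, 65.5 and 49.6. In knockdown somatodendritic libraries 1 to 6 they were 22.4, 23.1, 27.6, 15.4, 0 and 37.2. All 6 knockdown libraries were thus below all 4 controls, and their mean was 39.4% of the control mean. Sod1 was 1 of 8 genes whose groups did not overlap after scaling, as 5.49% of all genes tested did not. The fitted difference between knockdown and control was -2.04 on the log2 scale (SE 0.80, 95% interval -3.78 to -0.30; limma p = 0.0250, adjusted p = 0.281; two-sided exact permutation p = 0.0238 over 210 splits). That is -1.90 relative to the median of all genes, and 1.46% of genes had a lower value.

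The size of this difference rested in part on knockdown somatodendritic 5, where Sod1 was listed at 0 and where 3 fragments would have been about 25.9 FPKM. Without that library the log2 change was -1.28 (limma, adjusted p = 0.0574). Without all libraries under a relative depth of 0.5, which leaves 4 against 4, it was -1.44 (limma, adjusted p = 0.0139), the only fit in which Sod1 passed. Over the other fits the change stayed negative, between -2.62 and -1.28. Sod1 mRNA is 641 bases long and its FPKM rested on 14 to 30 implied fragments in control and 0 to 6 in knockdown somatodendritic libraries.

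In control axonal libraries 1 to 4 Sod1 was at 37.5, 62.5, 73.1 and 20.2 FPKM. In knockdown axonal libraries 1 to 6 it was at 18.3, 13.5, 46.7, 23.7, 20.6 and 36.5 FPKM. The groups overlapped, with 2 of 6 knockdown libraries below every control and a mean of 55.0% of control. The log2 change was -1.31 (SE 0.45, interval -2.27 to -0.35; limma p = 0.0109, adjusted p = 0.373), with an exact permutation p of 0.0238. It was -0.80 with FPKM as deposited (limma, adjusted p = 0.634). Between control compartments Sod1 differed little, with a log2 change of 0.24 (interval -0.58 to 1.06; limma, adjusted p = 0.744) that turned to -0.27 in FPKM as deposited.

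Sod1 shares most of its sequence with Gm8566, a processed pseudogene on another chromosome (chr6:67205619-67206083), so that the assignment of fragments between the 2 rows is uncertain. The transcripts are 97.8% identical over 465 bases, 72.5% of the Sod1 mRNA. Gm8566 was at 26.8 to 49.2 FPKM in control and 0 to 33.3 FPKM in knockdown somatodendritic libraries. The log2 change of the Gm8566 row was -1.56 in the somatodendritic compartment (limma, adjusted p = 0.436) and -2.23 in axons (limma, adjusted p = 0.449). Neither row passed the adjusted threshold in either compartment. The sum of both rows was 83.0 to 114.7 FPKM in control and 0 to 68.3 FPKM in knockdown somatodendritic libraries, again without overlap. Its log2 change was -1.99 in the somatodendritic compartment (limma, adjusted p = 0.383) and -1.59 in axons (limma, adjusted p = 0.259).

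Vcp (ENSMUSG00000028452, chr4:42979963-43000507, minus strand, 17 exons) was at 25.9, 20.7, 25.8 and 23.8 FPKM in control and at 7.31, 14.7, 29.4, 15.8, 24.0 and 31.6 FPKM in knockdown somatodendritic libraries. The 4 controls lay close together, while 3 of 6 knockdown libraries were below all of them and 2 above. The fitted log2 change was -0.56 (interval -1.35 to 0.22; limma, adjusted p = 0.544), and -0.31 without knockdown somatodendritic 1. In axons Vcp was at 13.1, 15.2, 17.1 and 15.8 FPKM in control and at 23.1, 20.7, 27.0, 7.92, 27.6 and 9.98 FPKM in knockdown libraries. The knockdown libraries again lay on both sides of the controls, 4 above and 2 below. The log2 change there was -0.30 (interval -1.23 to 0.62; limma, adjusted p = 0.878), and it was -0.10 without knockdown axonal 4, -0.18 without knockdown axonal 6 and 0.19 in FPKM as deposited. Between control compartments all 4 axonal values of Vcp lay below the somatodendritic ones as deposited, but the log2 change after scaling was -0.12 (interval -0.64 to 0.41; limma, adjusted p = 0.808).

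Vcp also has a near-identical processed copy, Vcp-rs (chrX:104345829-104348234), which carried more of the signal than Vcp itself. The transcripts are 99.0% identical over 2421 bases, with an unbroken identical run of 794 bases. A stretch of 30 exonic bases on the minus strand, at chr4:42983547-42983576 in Vcp and chrX:104346723-104346752 in Vcp-rs, shows in capitals 2 positions that tell them apart.
Vcp: taTccTgtggaacatccagacaaattcctc
Vcp-rs: taCccCgtggaacatccagacaaattcctc
Vcp-rs was at 54.8 to 70.8 FPKM in control and 39.8 to 56.3 FPKM in knockdown somatodendritic libraries, a log2 change of -0.67 ± 0.15 (SE; limma, adjusted p = 0.0613). The sum of Vcp and Vcp-rs had a mean of 85.4 ± 7.88 FPKM (SD, n = 4) in control and 65.0 ± 12.3 FPKM (n = 6) in knockdown somatodendritic libraries. Its log2 change was -0.62 (limma, adjusted p = 0.121), close to that of Vcp alone. In axons the sum was 63.7 ± 7.93 and 61.0 ± 15.2 FPKM, a log2 change of -0.61 (limma, adjusted p = 0.627).

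**Figure D2:**
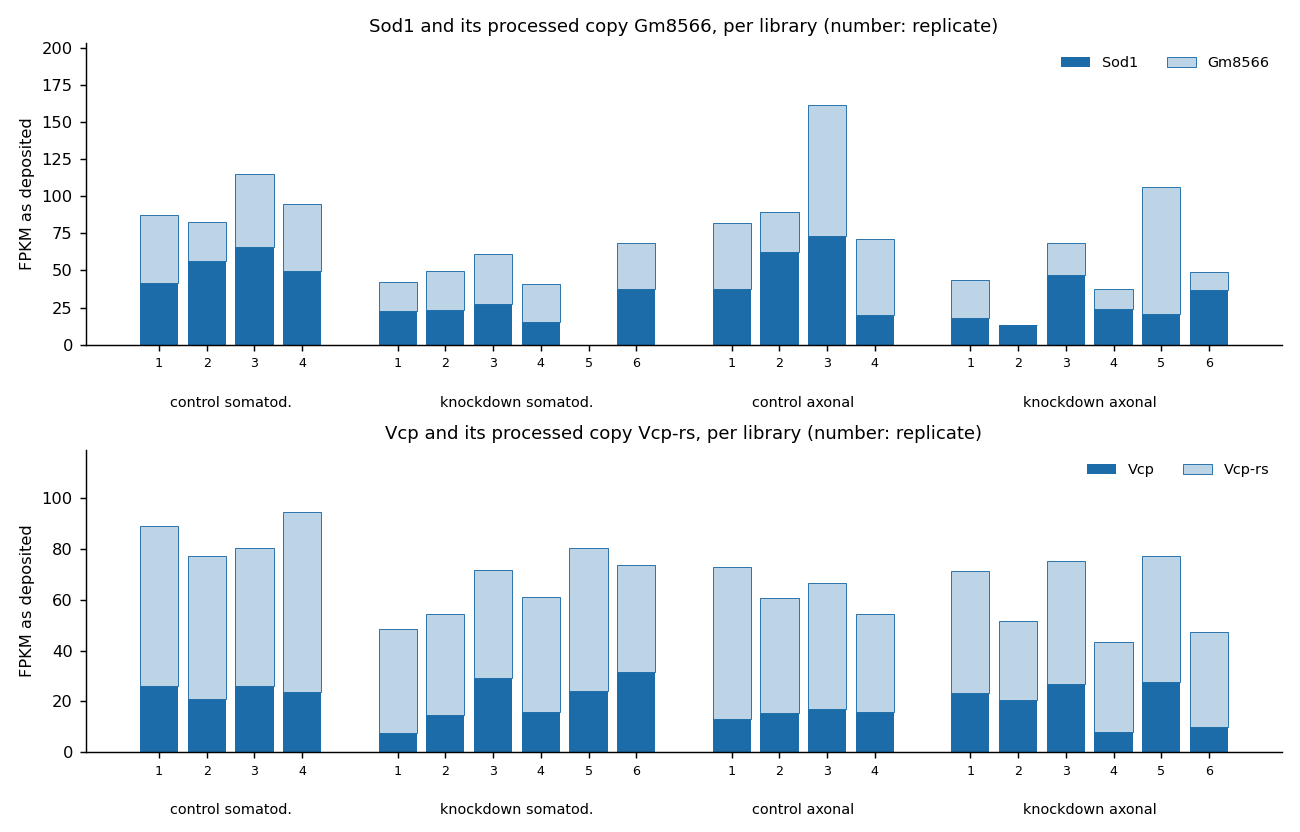
FPKM as deposited (vertical axes) of Sod1 with Gm8566 and of Vcp with Vcp-rs, stacked for each of the 20 libraries, which are numbered by replicate within the 4 groups on the horizontal axis. The Sod1 and Gm8566 sum is at most 68.3 FPKM in knockdown somatodendritic and at least 83.0 FPKM in control somatodendritic libraries, and Vcp-rs exceeds Vcp in all 20 libraries.

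Ubqln2 (ENSMUSG00000050148, chrX:153498227-153501570, plus strand, a single exon) rested on 11.0 to 79.1 implied fragments in the somatodendritic libraries, and among the 8 genes its knockdown libraries there varied least relative to their mean. It was at 35.9, 42.5, 34.0 and 43.8 FPKM in control and at 49.4, 39.9, 38.1, 37.9, 37.7 and 32.0 FPKM in knockdown libraries. The groups overlapped almost wholly, with means of 39.1 ± 4.81 (SD, n = 4) and 39.2 ± 5.69 FPKM (SD, n = 6). On the log2 scale the difference was -0.21 (interval -0.56 to 0.15; limma, adjusted p = 0.625) and 0.00 in FPKM as deposited. In axons it varied more, from 11.9 to 40.4 FPKM in control and from 14.6 to 69.4 FPKM in knockdown libraries, with a log2 change of -0.02 (interval -0.97 to 0.93; limma, adjusted p = 0.994).

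Sqstm1 (ENSMUSG00000015837, chr11:50199366-50210827, minus strand, 8 exons) was the single member with a higher level after knockdown in both compartments once libraries were scaled. With FPKM as deposited others were higher too. Control somatodendritic libraries held 192.7, 217.0, 258.9 and 210.0 FPKM, and knockdown libraries 292.6, 293.0, 358.8, 294.3, 324.3 and 158.3 FPKM. In FPKM as deposited 5 of 6 knockdown libraries were above every control, and the shallow knockdown somatodendritic 6 was below them. The log2 change after scaling was 0.14 (interval -0.26 to 0.53; limma, adjusted p = 0.797). It was 0.29 without knockdown somatodendritic 6, 0.21 without control somatodendritic 3, 0.0786 without control somatodendritic 1 and 0.0578 without knockdown somatodendritic 3. In axons Sqstm1 was at 115.9, 206.0, 73.4 and 120.0 FPKM in control and at 300.4, 210.6, 573.8, 194.3, 293.5 and 177.4 FPKM in knockdown libraries. There 4 of 6 knockdown libraries were above every control, and the mean was 226% of control. Its fitted log2 change was 0.62 (interval -0.10 to 1.35; limma p = 0.0859, adjusted p = 0.647; exact permutation p = 0.0667), or 0.79 relative to the median of all genes. Its size depended on the scaling: with FPKM as deposited it was 1.15 (limma, adjusted p = 0.293), when the median of all genes was 0.23 in place of -0.17. The 3′ end of Sqstm1 overlaps Mrnip on the other strand over 583 bases, and whether the counting used strand is not given in the sources used here. Mrnip had a mean of 5.41 FPKM over the 20 libraries.

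Optn (ENSMUSG00000026672, chr2:5020642-5064051, minus strand, 14 exons) was at 16.4, 12.5, 11.5 and 9.99 FPKM in control and at 16.5, 14.5, 10.4, 13.3, 8.37 and 0 FPKM in knockdown somatodendritic libraries. Only knockdown somatodendritic 5 and 6, both of low depth, lay below the controls. The log2 difference was -0.83 (interval -2.26 to 0.60; limma, adjusted p = 0.627), and without knockdown somatodendritic 6 it was -0.22. In axons it was at 4.18, 11.1, 7.35 and 2.36 FPKM in control and at 15.6, 7.30, 20.0, 17.4, 0 and 5.71 FPKM in knockdown libraries. Control axonal values rested on 0.2 to 3.1 implied fragments. On the log2 scale it amounted to -0.06 (interval -1.64 to 1.52; limma, adjusted p = 0.986), against 0.52 without knockdown axonal 5.

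Tbk1 (ENSMUSG00000020115, chr10:121546455-121586787, minus strand, 21 exons) had the lowest mean in all groups except knockdown axons, where Fig4 was lower. Its FPKM were 2.45, 2.24, 2.75 and 4.83 in control and 0.869, 3.29, 2.35, 2.62, 0 and 0 in knockdown somatodendritic libraries. The values of 0 were in the shallow libraries 5 and 6, where 3 fragments would have been about 5.39 and 9.72 FPKM, above every control value. The fitted log2 change was -1.01 (interval -2.13 to 0.11; limma p = 0.0738, adjusted p = 0.421; exact permutation p = 0.0571), and -0.47 without libraries under a relative depth of 0.5. In control axons its values were 3.04, 3.33, 3.39 and 0.863 FPKM and in knockdown axons 7.21, 1.44, 4.22, 7.22, 0 and 3.89 FPKM. The axonal log2 change was -0.17 (interval -1.59 to 1.26; limma, adjusted p = 0.960) and turned to 0.22 in FPKM as deposited.

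Chmp2b (ENSMUSG00000004843, chr16:65539128-65562726, minus strand, 6 exons) was lower in control axons at an unadjusted p under 0.05. It was at 31.3, 28.4, 31.7 and 33.9 FPKM in control somatodendritic and at 16.3, 6.87, 12.3 and 18.5 FPKM in control axonal libraries. No values overlapped, and the axonal mean was 43.1% of the somatodendritic mean. After scaling it was 1 of 8 genes without overlap, against 16.2% of all genes tested. Its log2 change was -0.73 (SE 0.32, interval -1.43 to -0.04; limma p = 0.0402, adjusted p = 0.193; exact permutation p = 0.0286, the smallest that 4 against 4 libraries allow), or -0.68 relative to the median of all genes. With FPKM as deposited the change was -1.24 and passed (limma, adjusted p = 0.0239), but the median of all genes then lay at -0.48. Without control axonal 2 it was -0.44 (limma, adjusted p = 0.322).

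In knockdown cultures Chmp2b was at 31.5, 46.1, 15.5, 40.0, 53.1 and 41.9 FPKM in somatodendritic and at 25.8, 11.9, 29.9, 28.6, 0 and 7.49 FPKM in axonal libraries. The ranges overlapped, with 3 of 6 axonal libraries below every somatodendritic one. The log2 change was -1.43 (SE 0.68, interval -2.87 to -0.00034; limma p = 0.04995, adjusted p = 0.301; exact permutation p = 0.0498). Without knockdown axonal 5, where Chmp2b was listed at 0 and 3 fragments would have been about 22.7 FPKM, it was -0.68 (limma, adjusted p = 0.375). Knockdown against control gave -0.02 in the somatodendritic compartment (interval -0.64 to 0.59; limma, adjusted p = 0.981) and -0.69 in axons (interval -2.31 to 0.94; limma, adjusted p = 0.834), which was -0.0098 without knockdown axonal 5.

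Fig4 (ENSMUSG00000038417, chr10:41188172-41303260, minus strand, 23 exons) followed Chmp2b between compartments. It was at 8.54, 9.03, 8.08 and 6.17 FPKM in control somatodendritic and at 2.12, 4.64, 5.03 and 2.41 FPKM in control axonal libraries. These did not overlap as deposited, but did after scaling, with a log2 change of -0.59 (interval -1.43 to 0.26; limma, adjusted p = 0.395). Knockdown somatodendritic libraries were at 3.23, 10.7, 8.02, 6.09, 9.97 and 8.84 FPKM and knockdown axonal ones at 5.02, 2.68, 8.41, 2.68, 0 and 0.603 FPKM. There 4 of 6 axonal libraries were below every somatodendritic one. The log2 change was -1.20 (SE 0.56, interval -2.38 to -0.02; limma p = 0.0473, adjusted p = 0.296; exact permutation p = 0.0325), and -0.83 without knockdown axonal 5 (limma, adjusted p = 0.411). Knockdown against control gave -0.27 in the somatodendritic compartment (limma, adjusted p = 0.778) and -0.81 in axons (limma, adjusted p = 0.757). These were -0.0691 without knockdown somatodendritic 1 and -0.49 without knockdown axonal 5.

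**Figure D3:**
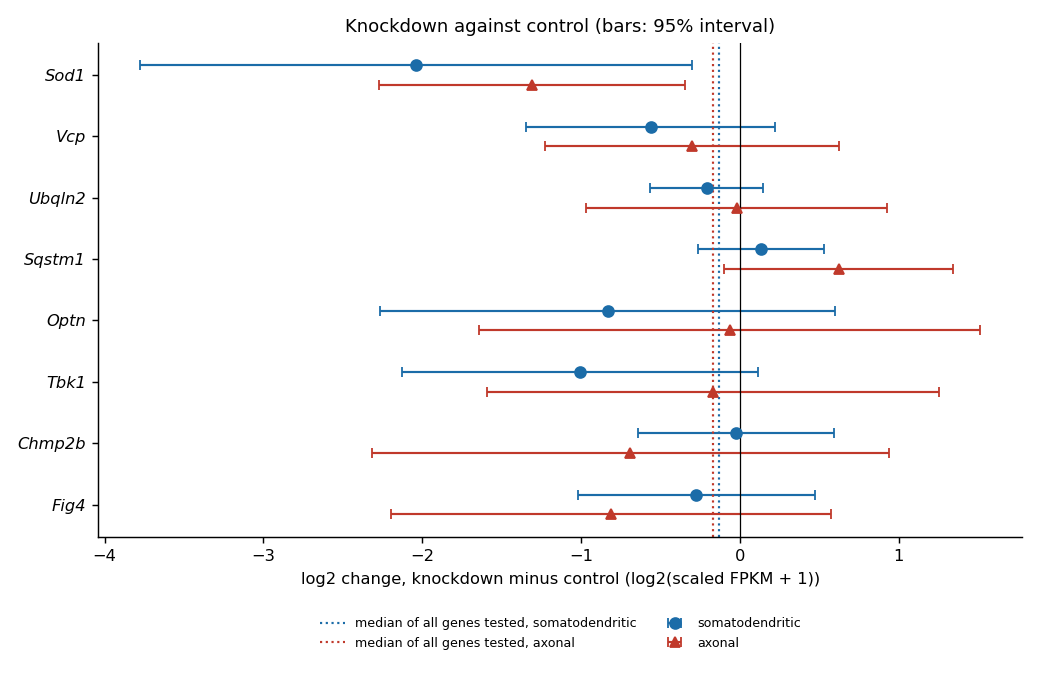
Log2 change, knockdown minus control, of log2(scaled FPKM + 1) on the horizontal axis for each of the 8 genes, in somatodendritic (circles) and axonal libraries (triangles), with 95% intervals from limma over 4 control and 6 knockdown libraries. Dotted lines mark the median of all genes tested (-0.13 and -0.17), and the intervals of Sod1 (-3.78 to -0.30 and -2.27 to -0.35) are the ones that lie wholly below 0.

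Taking the 8 genes as a list, 7 had a lower and 1 a higher fitted level after knockdown in the somatodendritic compartment, with a median log2 change of -0.42 against -0.13 over all genes tested, while 5 were lower and 3 higher with FPKM as deposited. In axons 7 were lower and 1 higher after scaling, with a median of -0.23 against -0.17, but 3 were lower and 5 higher with FPKM as deposited, and 4 and 4 with quantile normalization. Without the shallow knockdown axonal 5 the axonal counts were 5 lower and 3 higher. Between control compartments 6 were lower and 2 higher in axons (median -0.28 against -0.06), while all 8 were lower with FPKM as deposited. Between knockdown compartments 3 were lower and 5 higher in axons (median 0.16 against -0.07), and 6 lower and 2 higher with FPKM as deposited. With 1 library left out these counts ran from 4 lower and 4 higher (without knockdown axonal 3, among others) to 2 lower and 6 higher. No member had groups without overlap after scaling in axons after knockdown or between knockdown compartments, as 2.47% of genes had in each. The comparisons share libraries pairwise, so their counts are not independent of each other.

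The difference of the knockdown effect between compartments was tested for each gene as an interaction in limma, and 0 of 8 passed, where 0.0711% of 14062 genes did. At an unadjusted p under 0.05 it was again 0 of 8, against 5.61% of genes. For Tbk1 the value was 0.73 (interval -0.95 to 2.42; limma, adjusted p = 0.962), and 0.39 to 1.12 with 1 library left out. For Sod1 it was 0.66 (interval -1.27 to 2.60; limma, adjusted p = 0.971) and turned to -0.06 without knockdown somatodendritic 5. With intervals this wide, neither a like nor a different response of the compartments is shown.

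**Figure D4:**
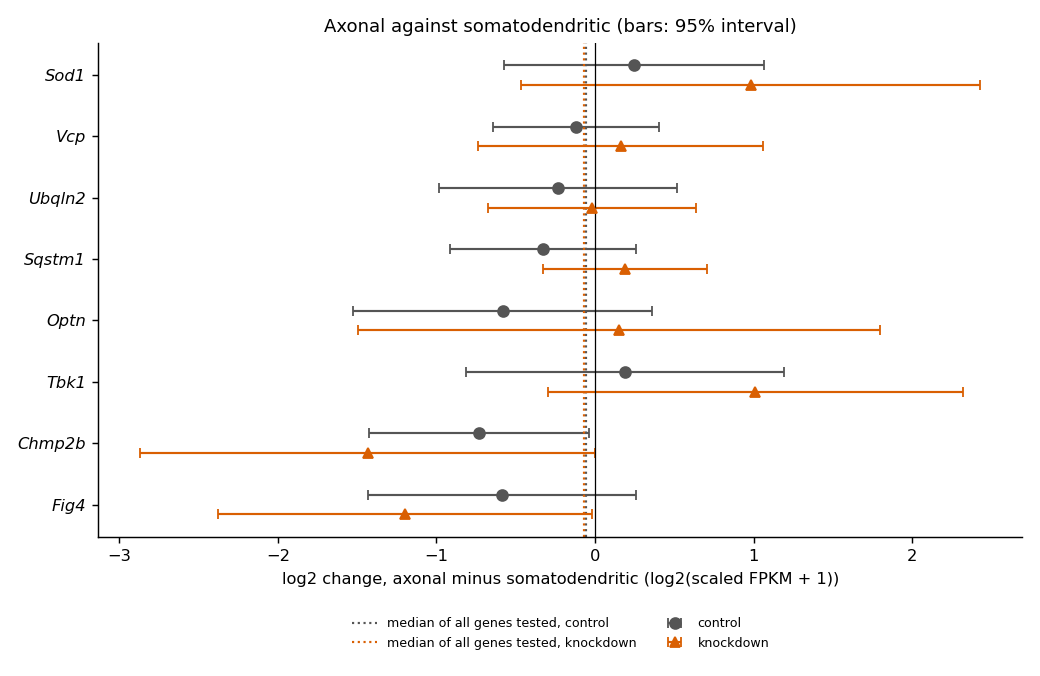
Log2 change, axonal minus somatodendritic, of log2(scaled FPKM + 1) on the horizontal axis for each of the 8 genes, in 4 control libraries per compartment (circles) and 6 knockdown libraries per compartment (triangles), with 95% intervals from limma and the median of all genes tested as dotted lines. Chmp2b and Fig4 have the lowest values in knockdown libraries (-1.43 and -1.20, or -0.68 and -0.83 without knockdown axonal 5), while Sod1 lies at 0.24 (-0.27 with FPKM as deposited) and 0.98 (0.22 without knockdown somatodendritic 5). Tbk1 has the highest value in knockdown libraries, 1.01 (limma, adjusted p = 0.439), and 0.78 to 1.45 with 1 library left out.

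Levels of cell type markers differed between the compartments along with these values, and in such bulk libraries fewer cells of a type and less RNA per cell cannot be told apart. The summed FPKM of 8 of 8 neuron markers, all of them detected, was 689 to 1010 in control axonal against 2460 to 2810 in control somatodendritic libraries, and 793 to 2440 against 2630 to 3590 in knockdown libraries. That of 6 fibroblast markers was 11.9 to 47.9 against 1.94 to 12.5, and 20.3 to 101 against 1.80 to 13.9, with Lum at 0 in all axonal libraries. Most of the control axonal sum was Col1a1 (mean 26.4 FPKM), while Dcn had means of 0.607 FPKM in control axonal and 0.826 FPKM in control somatodendritic libraries. Astrocyte and progenitor marker sums overlapped between control compartments, at 150 to 546 FPKM in axonal and 284 to 379 FPKM in somatodendritic libraries, and between knockdown compartments, at 55.2 to 712 and 205 to 360 FPKM. Nes, a progenitor marker of that list, was higher in control axons, with means of 74.7 against 9.87 FPKM (log2 change 3.42; limma, adjusted p = 0.000951), while 6 of the 8 markers, among them Gfap (1.80 against 9.36 FPKM) and Fabp7 (93.8 against 173 FPKM), had lower fitted levels there, none of the 6 past the test. Within the somatodendritic compartment, where Sod1 was lower after knockdown, the neuron marker sums were 2460 to 2810 in control and 2630 to 3590 in knockdown libraries. After scaling 5 of these 8 markers had lower and 3 higher fitted levels after knockdown. Only Nefl, a neurofilament subunit, passed, and it fell by 1.37 on the log2 scale (limma, adjusted p = 0.00143). Mapt and Map2 were higher in FPKM as deposited, with means of 434 against 227 and 529 against 329. Oligodendrocyte markers summed to 9.4 to 43.7 FPKM in control axonal and 56.1 to 106 FPKM in control somatodendritic libraries, and to 7.27 to 83.5 against 52.1 to 121 FPKM in knockdown libraries. Microglia and macrophage markers summed to at most 2.01 FPKM in control axonal and to 2.58 to 8.28 FPKM in control somatodendritic libraries, and to 0 to 15.9 against 3.31 to 12.3 FPKM in knockdown libraries. Gfap had means of 9.36 FPKM in control and 22.4 FPKM in knockdown somatodendritic libraries (log2 change 0.92, limma, adjusted p = 0.140). Of the 8 astrocyte and progenitor markers 3 had higher and 5 lower fitted levels in that comparison. Their sums were 284 to 379 FPKM in control and 205 to 360 FPKM in knockdown somatodendritic libraries. The part of these differences in the values of the 8 genes was not tested. Of 7 motoneuron markers 6 were found by symbol, and Chat, Mnx1 and Isl2 were at 0 in all 20 libraries. Isl1 reached at most 8.03 FPKM and was at 0 in all 6 knockdown axonal libraries. Isl1 means in the other groups were 1.87 to 2.68 FPKM.

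The genes whose pattern over the 20 libraries was most like that of each member were found by Pearson's r of log2(scaled FPKM + 1), among 8838 genes (8839 for Tbk1) whose mean reached 5 FPKM. For Sod1 they were Rpl9-ps4 (r = 0.908), Uqcr10 (0.843), a subunit of respiratory complex III, and Gm10221 (0.843). For Chmp2b they were Ppp3r1 (0.946), the regulatory subunit of calcineurin, 4931428F04Rik (0.943) and Got1 (0.932), and for Fig4 Trappc3 (0.899), Asb8 (0.891) and Cisd1 (0.879). Optn was closest to Smpd1 (0.918), Myc (0.904) and Mrpl38 (0.892). Tbk1 was closest to Gm7809 (0.846), Haus8 (0.833) and Htra2 (0.819), and the genes close to Ubqln2 included Tmem161a (0.748) and Slbp (0.715). Vcp was closest to Ndufb8 (0.798), Rtca (0.795) and Gm12251 (0.795). The lowest r of all belonged to Sqstm1, whose closest genes were Suv420h1 (0.725), Gm2541 (0.715) and Gm13394 (0.710). Each of these is the largest of many values and the libraries share depth, so the values are descriptions only.

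Among themselves the 8 genes did not follow 1 pattern. Over 28 pairs the median r was 0.08, from -0.41 for Vcp with Optn to 0.76 for Chmp2b with Fig4. Optn with Tbk1 reached 0.70. With the group means removed Chmp2b with Fig4 had an r of 0.65 and Optn with Tbk1 of 0.76. Optn, Tbk1, Chmp2b and Fig4 were all listed at 0 in the shallow library knockdown axonal 5, so depth is shared by these pairs.

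Tdp-43 binds UG-rich RNA, and the members were therefore searched for TGTGTG on the sense strand of their mRNA in GENCODE M21. Sod1, Vcp and Tbk1 held 1 match, Optn and Sqstm1 2, Fig4 3, and Ubqln2 and Chmp2b none. The longer TGTGTGTG, which contains the shorter motif, was found once in Optn and once in Fig4. Of 21901 mRNAs 68.0% hold TGTGTG and 21.9% hold TGTGTGTG. Among 369 mRNAs within 10% of the length of Sod1 the share with TGTGTG is 29.3%. The 30-base windows of Sod1, Optn and Fig4 are shown because Sod1 had the lowest log2 changes after knockdown among the members and the others hold the longer motif. All 3 lie in 3′UTRs, at chr16:90226254-90226283 on the plus strand, chr2:5021039-5021068 on the minus strand and chr10:41188331-41188360 on the minus strand, with the alternating run in capitals.
Sod1: gtaaacattcccTGTGTGgtctgagtctca
Optn: ggcatcttgtTGTGTGTGTaattctgtgga
Fig4: aagtaggtgccTGTGTGTGcacacacatgc
In the other members with a match, Vcp, Tbk1 and Sqstm1, the longest alternating run lies in the coding sequence. A match says only that these letters are present. The 2 genes without a match, Ubqln2 and Chmp2b, had somatodendritic log2 changes after knockdown of -0.21 and -0.02, and the 2 with the longer motif, Optn and Fig4, of -0.83 (-0.22 without knockdown somatodendritic 6) and -0.27. In axons the values were -0.02 and -0.69 without a match and -0.06 and -0.81 with the longer motif, of which Chmp2b was at -0.0098, Optn at 0.52 and Fig4 at -0.49 without knockdown axonal 5. None of these passed the test.

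The pathways around the members were followed with 8 lists of 116 genes in all. After knockdown 1 of 104 tested genes passed the adjusted threshold in the somatodendritic compartment (0.962%, against 0.974% of all genes) and 0 of 105 in axons (against 0.401%). At an unadjusted p under 0.05 in limma these were 16 of 104 (15.4% against 13.8%) and 7 of 105 (6.67% against 8.6%). Between compartments 2 of 104 passed the adjusted threshold in control (1.92% against 6.9%) and 0 of 105 in knockdown libraries (against 1.28%). Unadjusted, 21 of 104 (20.2% against 22.9%) and 16 of 105 (15.2% against 16.6%) were under 0.05 in limma. Around Vcp, the ubiquitin ligase Ube4b rose in the somatodendritic compartment by a log2 change of 1.02 ± 0.15 (SE; limma, adjusted p = 0.00490), and 18 of 20 other fits also called it. The other 23 Vcp cofactors tested there did not pass, and the median of the list was -0.21 against -0.13 over all genes. Around Ubqln2, 0 of 11 tested ubiquitin shuttle and aggregate clearance genes passed in the somatodendritic compartment after knockdown and 0 of 12 in each other comparison. The smallest p of that list belonged to Rad23b, another shuttle factor of the proteasome, at 0.73 ± 0.19 in the somatodendritic compartment after knockdown (limma, adjusted p = 0.0916).

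Of the other ALS genes, the tubulin gene Tuba4a was lower in control axons by a log2 change of -1.998 ± 0.287 (limma, adjusted p = 0.00396). Pfn1, the gene for the actin-binding protein profilin, was higher there by 0.92 ± 0.24 (limma, adjusted p = 0.0468), which was called in 5 of 18 other fits and was 0.40 with FPKM as deposited (limma, adjusted p = 0.307). No gene of the remaining 5 lists passed in any comparison, and for each of them the 2 genes with the smallest p are given. Around Sod1, among 11 tested genes of superoxide and peroxide defence, these were Park7, at 0.86 between knockdown compartments (limma, adjusted p = 0.166), and Gpx4, at -2.75 in axons after knockdown (limma, adjusted p = 0.399). Around Sqstm1 and Optn, among 14 tested autophagy receptors and Atg8 partners, they were Map1lc3a, at -0.85 between control compartments (limma, adjusted p = 0.115), and Gabarapl1, at -1.08 between knockdown compartments (limma, adjusted p = 0.186). Around Tbk1 they were Traf3, at 0.88, and Azi2, at -0.75, between control compartments (limma, adjusted p = 0.116 and 0.124). Around Chmp2b, among 12 tested ESCRT-III and Vps4 genes, they were Ist1, at 0.71, and Vps4b, at 1.16, in the somatodendritic compartment after knockdown (limma, adjusted p = 0.0919 and 0.149). Around Fig4 they were Pik3c3, with a difference of 1.39 in the knockdown effect between compartments (limma, adjusted p = 0.829), and Wipi2, at 1.37 between knockdown compartments (limma, adjusted p = 0.189).

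**Figure D5:**
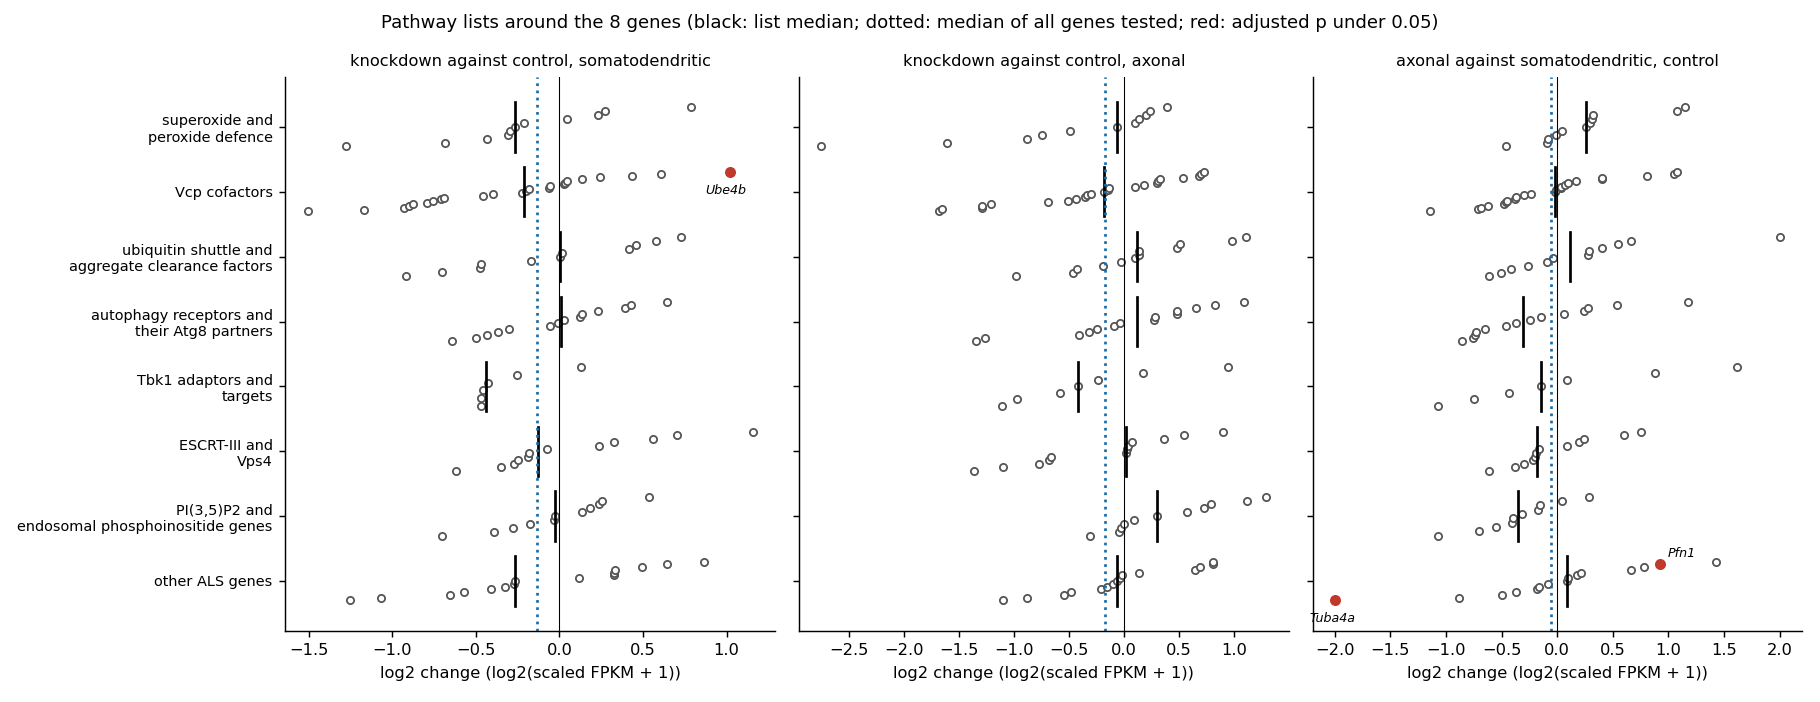
Log2 change (horizontal axes, log2(scaled FPKM + 1)) of the tested genes of 8 pathway lists in 3 comparisons, 1 point per gene, with the list median as a black bar, the median of all genes tested as a dotted line and genes with an adjusted p under 0.05 in limma filled in red. Ube4b (1.02), Tuba4a (-1.998) and Pfn1 (0.92) are the filled points.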

How the data were processed

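The deposited values are FPKM with a 95% interval, computed by the authors for each library. Per the labels, FastQC 0.10.1, Cufflinks 2.2.1 and GRCm38 were used, and the aligner version, annotation release and test are not given in the sources used here. The implied number of fragments was (2 × FPKM / (upper bound − FPKM))², and relative depth was the median of fragments over FPKM for 680 genes with more than 3 fragments in every library. PCR copies were not identified, so these cover counting error only. FPKM of at most 0.001 was read as 0.

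Within each comparison libraries were scaled (median of ratios), set to log2(FPKM + 1), filtered at a mean of at least 1 FPKM and tested across all genes with limma 3.58.1 in R 4.3.3 (lmFit, eBayes with trend, Benjamini-Hochberg adjustment). The scripts were tested on simulated data. Single genes were also compared by two-sided exact permutation. Tables and figures used Python 3.11.15, pandas 2.3.3 and matplotlib 3.10.9, and near-identical copies were found with blastn 2.17.0 on GENCODE M21 transcripts, while motifs were read from the same transcripts.

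The 8 genes and the lists were chosen with earlier results of these data known. Named genes are the 8 members, Tardbp, near-identical copies, the 3 genes most like each member, and from each list those past the adjusted threshold or, if none, the 2 with the smallest p (1 for the ubiquitin shuttle list). Some items are not reported here and are left out of the lists. Markers are named where they describe a compartment. Alternatives were no scaling, quantile normalization, a pseudocount of 0.1 or 5, no filter or a mean of at least 5 FPKM, array weights, 1 fit of all 20 libraries, a replicate block, other summaries of levels, and each library left out. The depth limit of 0.5, summed copies and depth-weighted levels were added after seeing the data.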

Additional observations from a re-analysis of the deposited data

Results flagged for a closer look

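Of 32 groups of values (8 genes in 4 groups), 3 held a library far from the others of its group by Dixon's criterion, which chance alone meets in about 1 of 20 groups. Tbk1 in control axonal 4 was at 0.863 FPKM, below the other 3 control axonal libraries at 3.04 to 3.39 FPKM. Sqstm1 in knockdown axonal 3 was at 573.8 FPKM, above the other 5 at 177.4 to 300.4 FPKM. Sqstm1 in knockdown somatodendritic 6 was at 158.3 FPKM, below the other 5 at 292.6 to 358.8 FPKM, and this library had a relative depth of 0.143. No test of a difference between compartments in the knockdown effect called any of the 8 genes.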

How the results depend on the processing

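Refitted log2 changes and exact permutation tests of the 8 genes were set against the reported fits. Of these, 852 kept their sign and their side of 0.05, 54 changed sign and 2 passed where the reported fit did not. Refits were judged by the adjusted p in limma, and permutation tests by unadjusted p. The number of members past the threshold was 0 in 112 of 114 refits. It was 1 (Sod1) in the somatodendritic knockdown comparison when libraries had to reach a relative depth of 0.5, a limit chosen after seeing the data, and 1 (Chmp2b) between control compartments with FPKM as deposited. With FPKM as deposited, signs turned in the somatodendritic compartment after knockdown for Ubqln2 (0.000935) and Chmp2b (0.18), in axons for Vcp (0.19), Optn (0.38), Tbk1 (0.22) and Ubqln2 (0.49), between control compartments for Sod1 (-0.27) and Tbk1 (-0.19), and between knockdown compartments for Vcp (-0.0668), Optn (-0.0365) and Sqstm1 (-0.0562). For the axonal knockdown effect, quantile normalization gave Optn 0.31, Tbk1 0.19 and Ubqln2 0.0395, a pseudocount of 5 gave Optn 0.0647, and array weights gave Optn 0.22 and Ubqln2 0.0896. The depth limit gave Optn 0.49, Tbk1 0.31 and Ubqln2 0.15 there, Optn -0.0438 and Ubqln2 0.0062 between knockdown compartments, and 0.0818 for the difference of the Chmp2b effect. Array weights gave Ubqln2 0.0058 between knockdown compartments. Summed with Vcp-rs, Vcp was at 0.10 between control compartments and its difference of effects at -0.0145. Leaving out 1 library at a time called 0 members in every comparison. It moved Chmp2b in the somatodendritic compartment after knockdown from -0.12 to 0.20, and in axons Optn from -0.41 to 0.52, Tbk1 from -0.50 to 0.21 and Ubqln2 from -0.31 to 0.23. Between control compartments it gave Sod1 -0.0291 to 0.60 and Ubqln2 -0.50 to 0.0671, and between knockdown compartments Vcp -0.0877 to 0.35, Optn -0.46 to 0.80 and Ubqln2 -0.19 to 0.15. For the difference of effects it gave Sod1 -0.0617 to 0.95, Vcp -0.0196 to 0.43 and Ubqln2 -0.13 to 0.41. Scaled over all 20 libraries, mean levels moved by more than 1 SD for Vcp (21.5 FPKM) and Chmp2b (18.8 FPKM) in control axons and Ubqln2 (31.2 FPKM) in knockdown somatodendritic libraries. The causes were not tested.

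Libraries with the same replicate number did not deviate together (r from -0.0356 to 0.0714). No libraries known to share a culture were at hand, so this does not tell whether the numbers pair them. With the replicate block 0 members passed in each comparison, and in axons after knockdown Optn was at 0.70, Tbk1 at 0.19, Ubqln2 at 0.0884 and Chmp2b at 0.23. Replicate numbers 5 and 6 occur only among knockdown libraries. With the block these libraries therefore do not enter the estimate of knockdown against control within a compartment. Over all genes the block moved the calls from 134 to 18 in the somatodendritic knockdown comparison and from 179 to 13 between knockdown compartments. Other settings gave up to 432 calls in the somatodendritic (array weights) and 30 to 236 in the axonal knockdown comparison, where 56 were reported (pseudocount 0.1 and all 20 libraries in 1 fit). Between control compartments 295 to 2055 genes passed where 949 were reported (all 20 libraries in 1 fit and FPKM as deposited), and between knockdown compartments up to 753. Of all calls in the somatodendritic knockdown comparison 30 were higher and 104 lower, against 150 and 83 with FPKM as deposited, and between control compartments 541 and 408 against 344 and 1711. Few implied fragments limit Tbk1 (0 to 11.9 per library), Optn (0 to 14.1), Vcp (0.3 to 17.9), Fig4 (0 to 18.9) and Sod1 (0 to 30).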
